A study of Mus musculus with 39 samples.

Results

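Box H/ACA small nucleolar RNAs, whose gene symbols begin with Snora, were described in nuclear RNA of mouse neocortex collected by 2 techniques, INTACT and FANS. All gene rows with a symbol of Snora followed by a digit were taken, 36 of the 24421 gene rows of each table. Of these, 33 had at least 1 read in each of the 3 batches, and 32, 32 and 31 reached a mean normalized read count of 5 in batches 1, 2 and 3 and were tested there. Nuclei came from adult mice of both sexes in the fourth month of life, that carried creERT2 at Arc (TG/WT) and, at the R26 locus, CAG-Sun1-sfGFP-Myc in either of the states M/WT and M/M, and received tamoxifen before a social interaction test. Cre was driven by Arc, so that sfGFP marked the nuclear membrane of cells that expressed Arc at that time, and FANS and INTACT libraries alike carried these alleles and this treatment. INTACT captured the tagged nuclei on magnetic beads and FANS sorted them by fluorescence from aliquots of the same nuclei. Each library was made from 10000 nuclei with a ribosomal RNA depletion kit. The 31 libraries comprised 4 FANS and 4 INTACT in batch 1, 7 and 4 in batch 2, and 7 and 5 in batch 3. Each batch was 1 biological source, so p-values measure the spread between libraries of that source and not between animals.

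H/ACA RNAs fold into hairpins joined by a hinge and followed by a tail that holds the box ACA near its end. They pair with a target RNA and direct its pseudouridylation by dyskerin (Dkc1), the catalytic protein of a particle that also holds Nhp2, Nop10 and Gar1. Mouse H/ACA RNAs are as a rule cut out of introns of other genes, called hosts, and their main targets are ribosomal RNAs in the nucleolus. The human counterparts of Snora20 and Snora70 act on the RNA of the small ribosomal subunit, and those of Snora7a, Snora23 and Snora64 on that of the large subunit.

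The sequences of the 5 rows that differed by at least 1.5-fold at an adjusted p below 0.05 in 2 batches, and of Snora70, which fell most in batch 1 and had the largest mean upward difference of the rows with a mean of at least 50 in batch 2, show what was counted. They are the RNA strands as DNA letters in mm10 (RefSeq), 5′ to 3′, with the ACA nearest the annotated end in capitals.
Snora7a: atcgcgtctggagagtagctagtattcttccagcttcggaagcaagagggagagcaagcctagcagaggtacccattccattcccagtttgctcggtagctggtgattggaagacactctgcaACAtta
Snora20: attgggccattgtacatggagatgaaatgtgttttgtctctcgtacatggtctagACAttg
Snora23: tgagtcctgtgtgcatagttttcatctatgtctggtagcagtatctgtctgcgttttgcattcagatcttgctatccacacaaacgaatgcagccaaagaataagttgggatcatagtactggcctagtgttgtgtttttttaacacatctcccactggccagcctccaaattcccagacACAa
Snora64: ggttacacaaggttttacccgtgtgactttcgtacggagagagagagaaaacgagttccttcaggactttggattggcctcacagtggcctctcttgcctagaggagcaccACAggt
Snora78: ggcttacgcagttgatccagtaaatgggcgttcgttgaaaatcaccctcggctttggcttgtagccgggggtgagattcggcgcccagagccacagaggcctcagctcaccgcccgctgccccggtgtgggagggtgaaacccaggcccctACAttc
Snora70: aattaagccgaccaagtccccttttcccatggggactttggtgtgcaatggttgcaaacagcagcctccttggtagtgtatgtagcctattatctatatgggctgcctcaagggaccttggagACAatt
Snora7a lies in an intron of Rpl32 (chromosome 6, 115807975 to 115808103, minus strand). Snora20 lies in an intron of the chaperonin gene Tcp1 (chromosome 17, 12922857 to 12922917, plus strand). Snora23 lies in an intron of the import receptor gene Ipo7 (chromosome 7, 110046364 to 110046547, plus strand). Snora64 lies in an intron of Rps2 (chromosome 17, 24720789 to 24720905, plus strand), and Snora78 lies in an intron of Snhg9 (chromosome 17, 24719676 to 24719832, minus strand). Snora78 also overlaps the annotated span of Rps2 on the opposite strand, outside the exons and introns of the Rps2 transcripts used here. As the strand setting of the counting is not given, any reads of the opposite strand there cannot be told apart from Snora78. Snora70 lies in an intron of Rpl10 (chromosome X, 74272492 to 74272620, plus strand). Searching for ACA on the RNA strand alone, 25 of the 36 annotated sequences (69.4%) held it exactly 3 nt from the end, against 1 of 74 box C/D rows (1.35%), whose symbols begin with Snord. ACA occurred in the last 11 nt of 34 Snora rows (94.4%) and of 2 Snord rows (2.7%). Snora23 held overlapping copies of ACA 1 nt and 3 nt before its annotated end, of which the capitals mark the one nearer the end. The 5 others shown held it 3 nt before theirs.

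The 36 rows were 56 to 198 nt long, with a median of 119.5 nt and a GC content of 32.8 to 61.8%. They lay in 32 different hosts, 34 in introns and 2, Snora24 in Snhg8 and Snora26 in Dancr, in exons. The hosts of 11 rows encode ribosomal proteins and those of 4 encode translation factors. The hosts of 9 rows are long non-coding RNAs, and those of 12 rows encode other proteins. Snora19, Snora24 and Snora26 had 0 reads assigned in all 31 libraries, which allows up to 3 assigned reads over the libraries together, by counting error only. How reads on a Snora row and an overlapping host exon were assigned is not given in the sources used here, so the 0 of Snora24 and Snora26 sets no limit on their RNA. Snora19 has a near-identical copy, and reads that match both places were not counted. Snora34 stayed under a mean of 5 in every batch, and Snora36b in batch 3. At 95% identity, 24 sequences occurred at 1 place in the genome, 10 at 2 places and 2, Snora61 and Snora65, at 3 places. Only uniquely aligned reads were counted, so the values of these 12 rows, Snora70, Snora21, Snora3, Snora30, Snora41 and Snora81 among them, are uncertain. Reads of the unspliced host that cross a Snora row cannot be told apart from reads of the processed RNA.

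The libraries held 4205665 to 11028713 reads on genes. The share of uniquely aligned reads outside gene features was 81.9 to 84.3% in FANS and 73.6 to 75.3% in INTACT libraries of batch 1. It was 81.9 to 84.0% and 79.8 to 81.4% in batch 2, and 82.6 to 87.5% and 84.4 to 85.5% in batch 3, where the ranges overlapped. INTACT libraries of batch 1 also had more reads (8621143 to 11028713) than FANS libraries (4853224 to 6066759), and both measures cannot be told apart from technique there. In batch 2 the shares outside gene features did not overlap either, and they too cannot be told apart from technique. The study's text describes the first batch as the one of high RNA integrity, with ranges that overlapped those of the others, and the part of RNA integrity in the results below was not tested. Of 8 excitatory neuron markers, all were tested in each batch and none differed by 1.5-fold at an adjusted p below 0.05, although 4 had an adjusted p below 0.05 in batch 1. Their summed level was 8660 to 11400 in every library, so the neurons expected in neocortex were present in the RNA.

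Snora rows differed widely in level. The mean normalized count of the tested rows ran from 7.1 to 748 in batch 1, from 5.55 to 556 in batch 2 and from 5.22 to 652 in batch 3, with medians of 55.1, 36.5 and 40.6. Per 100 nt and over the libraries of both techniques, the highest rows of batch 1 were Snora23 (406), Snora15 (328) and Snora81 (315). In FANS libraries of batch 1 alone, Snora70 was highest at 435, next to Snora23 at 432, and in INTACT libraries Snora70 was at 174. In batches 2 and 3, Snora70 led with 431 and 505 per 100 nt. It was followed by Snora64 (224) and Snora15 (219) in batch 2 and by Snora15 (267) and Snora61 (213) in batch 3. Snora61 is annotated at only 62 nt, which raises its value per 100 nt. Its mean count in batch 3 was 132, against 387 for Snora23. The order also depended on technique. In batch 3, Snora23 was at 295 per 100 nt in FANS and 91.5 in INTACT libraries, and Snora61 at 243 and 169. In batch 2, Snora15 was at 245 and 175, and Snora64 at 225 and 223. These levels were scaled separately in each table. Among rows with a mean of at least 50, the coefficient of variation between FANS libraries of batch 3 had a median of 28.6% over 14 rows, against 10.7% over 9654 genes of that level. The same medians were 17.1% and 8.32% in INTACT libraries of batch 3.

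The sum over the 36 rows was lower in every INTACT than in every FANS library in batches 1 and 3. In batch 1 it was 4271, 5261, 4131 and 4930 in FANS libraries and 3357, 3755, 3781 and 3318 in INTACT libraries. In batch 2 the sums overlapped, with a lowest, median and highest of 2437, 3106 and 4672 in FANS and values of 3251, 3235, 2266 and 2577 in INTACT. In batch 3 they were 3655, 3881 and 5922 in FANS and 2220, 2255, 1664, 2033 and 2203 in INTACT. FANS replicate 1 of batch 3 stood above the other FANS libraries and was the highest library for 19 of the 31 tested rows, and INTACT replicate 3 was the lowest for 19.

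**Figure D1:**
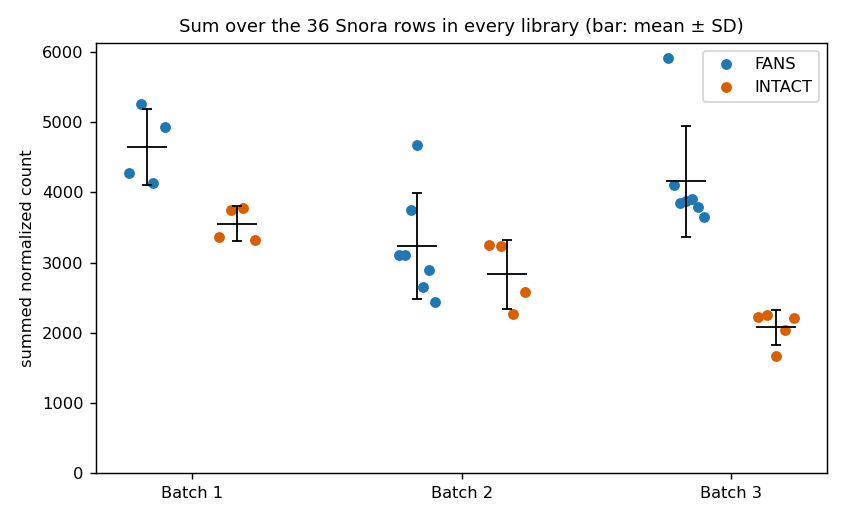
Summed normalized read count of the 36 Snora rows (y axis) in each library (points), by batch and technique (x axis), with bars for the mean and SD. INTACT libraries sit below all FANS libraries in batches 1 and 3, at 1664 to 2255 against 3655 to 5922 in batch 3, and overlap with them in batch 2.

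Batch 3 asked whether the techniques differed in a source where few genes did. All 31 tested Snora rows had a lower mean in INTACT, with a median log2 fold change (INTACT minus FANS, on log2 of the normalized count plus 1) of -0.91, against 0.00 over all 14440 genes tested. Of the 31 rows, 19 fell and none rose at an adjusted p (limma, Benjamini-Hochberg) below 0.05 and a change of at least 1.5-fold, where 0.346% of all genes fell (50 genes) and 0.0139% rose. In 13 rows, each called lower, every INTACT library was below every FANS library, as in 0.589% of all genes. edgeR on recovered reads called 20 rows, and DESeq2, which gave an adjusted p for 14 rows, called 11. With the share of reads outside features as a covariate, 21 rows were called. Leaving out FANS replicate 1 left 16 and leaving out INTACT replicate 3 left 15.

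Snora20 fell most among rows with a mean of at least 50. It was 39.4 to 141 in FANS libraries of batch 3, with a median of 75.8, and 24.7, 24.7, 9.03, 24.6 and 22.3 in INTACT libraries. All INTACT libraries lay below all FANS libraries, and INTACT replicate 3 lay below the others on 9 reads. The log2 fold change was -1.76 ± 0.258 (SE), with an adjusted p of 1.91e-04 by limma.

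Snora23 was 359 to 770 in FANS, with a median of 501, and 189, 177, 168, 104 and 204 in INTACT. The groups were far apart, by 3.19-fold on the fitted scale (log2 fold change -1.67 ± 0.150 SE, limma adjusted p 8.56e-08), the smallest adjusted p among the Snora rows. Its host Ipo7 had a mean of 573 ± 38.6 (SD) over the 7 FANS libraries and of 523 ± 14.6 (SD) over the 5 INTACT libraries.

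Snora7a was 170 to 390 in FANS, with a median of 246, and 114, 118, 93.3, 145 and 133 in INTACT. The groups did not overlap, and the log2 fold change was -1.0 ± 0.146 (SE, limma adjusted p 1.91e-04). Snora64 was 144 to 317 in FANS, with a median of 262, and 175, 170, 123.4, 128 and 185 in INTACT. FANS replicate 7 lay within the INTACT range, the other FANS libraries lay above it, and the log2 fold change was -0.67 ± 0.134 (SE, limma adjusted p 0.00475). Snora78 was 145 to 366 in FANS, with a median of 188, and 127, 141, 99.3, 119 and 149 in INTACT. Its groups met at one end, and its log2 fold change of -0.72 ± 0.149 (SE, limma adjusted p 0.00708) lost the call without FANS replicate 1 (-0.58) and without INTACT replicate 3 (-0.63).

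The other 14 rows that fell in batch 3 had log2 fold changes from -1.52 (Snora35) to -0.68 (Snora52). Snora81, in the initiation factor gene Eif4a2, fell from 397 ± 114 (SD, n = 7) to 156 ± 23.6 (SD, n = 5), with a log2 fold change of -1.31. Snora15, in the chaperonin gene Cct6a, fell from 402 ± 107 to 181 ± 43.1 (-1.14), and Snora21, in Rpl23, from 107 ± 22.2 to 41.4 ± 7.93 (-1.35). Snora74a (-1.12), Snora16a (-0.97) and Snora17 (-0.91) lie in the non-coding hosts Snhg4, Snhg12 and Snhg7. Snora3 (-1.51) and Snora33 (-1.14) lie in Rpl27a and Rps12, and Snora68 changed by -1.11. Snora47 (-1.18), Snora41 (-1.16) and Snora30 (-0.86) lie in Zbed3, Eef1b2 and Srcap. Snora35, in the serotonin receptor gene Htr2c, and Snora52, in Rplp2, were the least stable, and lost the call in 7 and 8 of the 12 fits that left out a library. Snora35 had 5 to 12 reads in FANS and 1 to 4 in INTACT libraries.

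The 12 rows of batch 3 that were not called also had lower means in INTACT, and the smallest differences were those of Snora75 (-0.21) and Snora65 (-0.29). Among rows with a mean of at least 50, the smallest fall was that of Snora61, at 76.8 to 196 in FANS, with a median of 163, and 115, 102, 115, 106 and 86.3 in INTACT. The groups overlapped, and its log2 fold change was -0.46 ± 0.162 (SE, limma adjusted p 0.165). Snora70, the next smallest, was 404 to 1040 in FANS, with a median of 886, and 490, 529, 382, 530 and 517 in INTACT (-0.57 ± 0.163 SE, limma adjusted p 0.0664).

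**Figure D2:**
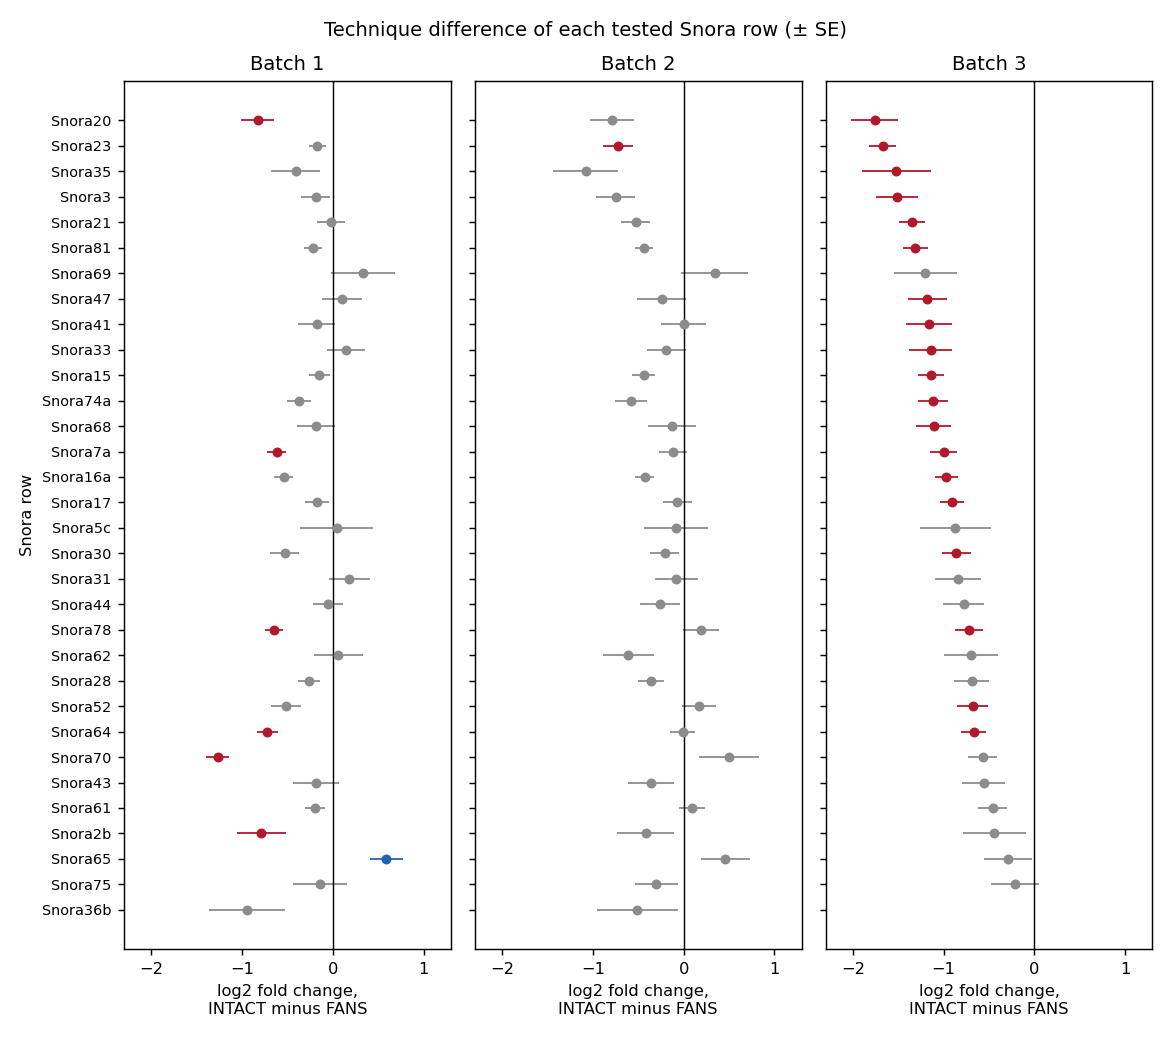
Log2 fold change (x axis, INTACT minus FANS, with SE bars) of each tested Snora row (y axis, ordered by batch 3) in the 3 batches, with rows called lower in red, higher in blue and not called in grey. All 31 points of batch 3 lie below 0 and 19 are called, against 6 called lower and 1 higher in batch 1 and 1 lower in batch 2.

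In batch 1, 6 Snora rows fell and 1 rose of 32 tested, where 3.94% of all 15114 genes fell and 4.03% rose. The median log2 fold change was -0.19, against 0.01 over all genes, and 25 of the 32 rows were negative. With no fold threshold, 11 of the 32 rows had an adjusted p below 0.05, a share close to the 36.1% of all genes. In 8 rows all INTACT libraries lay below all FANS libraries, as in 16.5% of all genes. Leaving out 1 library moved the number called from 7 to between 4 (without FANS replicate 2) and 9 (without FANS replicate 1).

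Snora70 fell most in batch 1. Its FANS libraries held 383, 465, 685 and 711, and its INTACT libraries 236, 215, 248 and 200. The groups did not overlap, and the log2 fold change was -1.27 ± 0.130 (SE, limma adjusted p 3.19e-08).

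Snora64 was 214, 309, 270 and 338 in FANS and 156, 148, 183 and 192 in INTACT libraries of batch 1 (log2 fold change -0.72 ± 0.115 SE, limma adjusted p 2.14e-05). Snora78 was 196, 244, 181 and 231 in FANS and 141, 134, 133 and 131 in INTACT (-0.65 ± 0.102 SE). Snora7a was 199, 200, 225 and 217 in FANS and 131, 154, 147 and 118 in INTACT (-0.62 ± 0.101 SE). In these 3 rows the groups did not overlap, although Snora78 lost the call without FANS replicate 2 (-0.58) and Snora7a without INTACT replicate 4 (-0.55).

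Snora20 was 92.6, 69.9, 51.8 and 79.5 in FANS and 38.9, 52.0, 37.9 and 33.0 in INTACT libraries of batch 1. The groups touched at about 52, and the log2 fold change was -0.83 ± 0.187 (SE, limma adjusted p 9.66e-04). Snora2b, in Kansl2, fell from 26.5 ± 7.28 (SD, n = 4) to 14.6 ± 2.6 (SD, n = 4), with a log2 fold change of -0.79, and lost the call in 3 of the 8 fits without 1 library. Snora65, in Rpl12, was the row that rose, from 32.1 ± 3.17 to 48.5 ± 0.876 (0.59 ± 0.179 SE, limma adjusted p 0.0119), and it was under 1.5-fold in 5 of those 8 fits, with a pseudocount of 5 (0.53) and with 75th percentile scaling (0.58). Its host Rpl12 rose by 0.85 on the log2 scale.

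No row with a mean of at least 50 had a higher mean in INTACT than in FANS on the log2 scale in batch 1. The smallest differences were those of Snora21 (-0.02 ± 0.156 SE) and Snora44 (-0.05 ± 0.165 SE). Snora21 was 111, 168, 79.0 and 130 in FANS and 111, 123.1, 127 and 105 in INTACT, and the FANS libraries spanned the INTACT ones.

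In batch 2, 1 of 32 tested rows fell and none rose, where 0.0336% of all 14876 genes fell (5 genes) and 0.0941% rose. With limma and no fold threshold, 3 rows had an adjusted p below 0.05, as did 1.14% of all genes, and 11 rows an unadjusted p below 0.05, as did 15.2% of all genes. edgeR also called 1 row. The median log2 fold change was -0.25, against 0.00 over all genes, and 25 of the 32 rows were negative. Only Snora15 and Snora81 had all INTACT libraries below all FANS libraries, as in 1.40% of all genes.

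Snora23 was the row that fell. It was 227 to 582 in FANS libraries of batch 2, with a median of 416, and 208, 285, 190 and 319 in INTACT libraries. The groups overlapped, and the log2 fold change was -0.72 ± 0.165 (SE, limma adjusted p 0.0267). The call was lost without FANS replicate 6 or 7, without INTACT replicate 1 or 3, with DESeq2 (-0.75), with all genes that had a read (-0.72) and with the replicate number as a block (-0.32). Snora81 (-0.44 ± 0.0992 SE, limma adjusted p 0.0249) and Snora16a (-0.43 ± 0.109 SE, limma adjusted p 0.0480) had an adjusted p below 0.05 but did not reach 1.5-fold. Snora74a, the next largest fall with a mean of at least 50, changed by -0.58 ± 0.171 (SE, limma adjusted p 0.0856).

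Snora70 had the largest upward difference of batch 2 among rows with a mean of at least 50. It was 178 to 977 in FANS, with a median of 548, and 904, 728, 424 and 451 in INTACT. The FANS libraries spanned the INTACT ones, with 3 of the 7 between 178 and 245 and the others at 548 or above, and the log2 fold change of 0.50 ± 0.330 (SE) was not called (limma adjusted p 0.491). With the replicate number as a block, where the difference rests only on the numbers that both techniques have, it was 0.00. Snora78 was next among these rows, at 128 to 345 in FANS, with a median of 222, and 327, 321, 161 and 185 in INTACT (0.19 ± 0.197 SE).

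Of the other rows called in 2 batches, Snora20 was 30.0 to 90.4 in FANS libraries of batch 2, with a median of 41.2, and 25.1, 27.5, 14.4 and 30.8 in INTACT (-0.79 ± 0.242 SE, limma adjusted p 0.0977). Snora7a was 97.6 to 192 in FANS, with a median of 155, and 206, 148, 128 and 96.8 in INTACT (-0.12 ± 0.155 SE). Snora64 was 169 to 371 in FANS, with a median of 263, and 318, 303, 191 and 232 in INTACT (-0.01 ± 0.139 SE). The groups overlapped in these 3 rows. Snora23 of batch 1 was 747, 986, 606 and 844 in FANS and 622, 747, 749 and 679 in INTACT, which also overlapped (-0.17 ± 0.0945 SE, limma adjusted p 0.175).

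**Figure D3:**
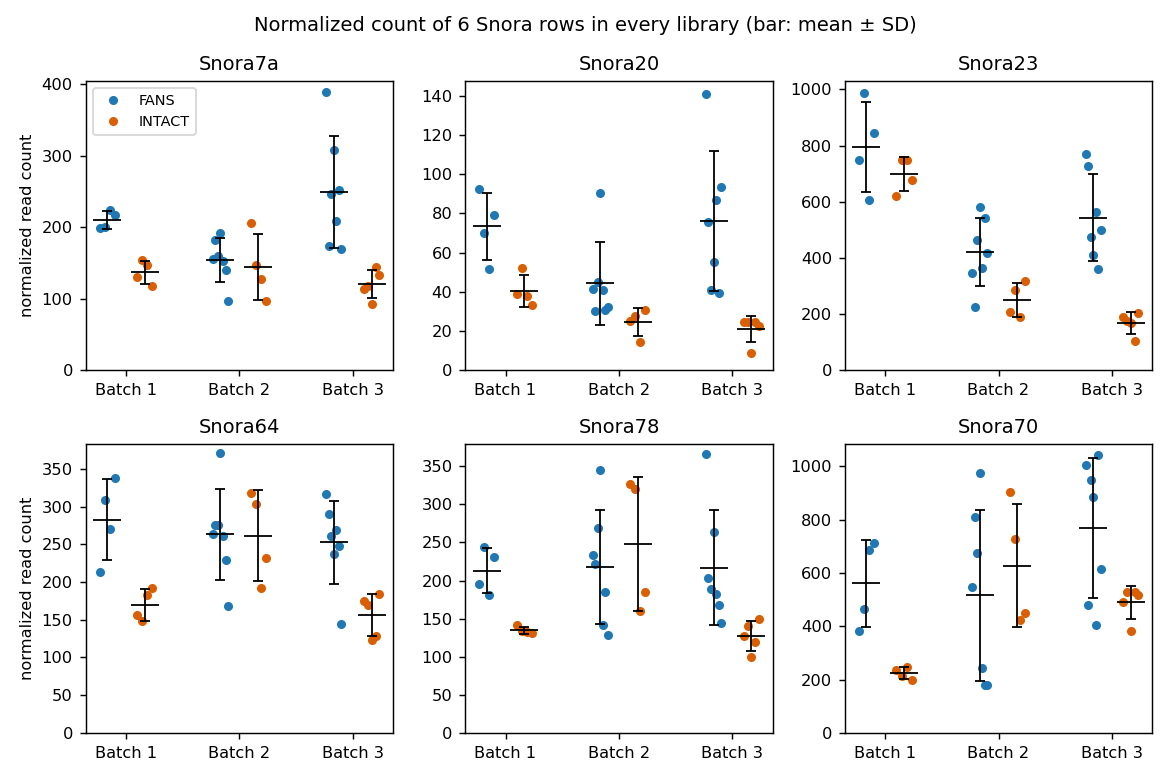
Normalized read count (y axis) of Snora7a, Snora20, Snora23, Snora64, Snora78 and Snora70 in each FANS (blue) and INTACT (orange) library of the 3 batches (x axis), with bars for the mean and SD. Snora23 separates in batch 3, at 104 to 204 in INTACT against 359 to 770 in FANS, and overlaps in batches 1 and 2, and Snora70 separates in batch 1.

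The batches shared no library. Of the 31 rows tested in all of them, 19 (61.3%) had a negative log2 fold change in each batch, against 17.0% of the 14332 genes tested in all. Snora7a, Snora20, Snora64 and Snora78 were called lower in batches 1 and 3, that is 4 of the 6 rows called in batch 1 and 4 of the 19 called in batch 3, and 5 of all genes were called in both. Snora23 was called lower in batches 2 and 3. With the 3 batches in 1 fit and batch as a term, 10 of the 31 rows fell and none rose, where 0.230% of all genes fell and 0.181% rose, and the median was -0.47 against -0.01. The 10 rows were Snora3 (-0.90), Snora7a (-0.60), Snora15 (-0.64), Snora16a (-0.67), Snora20 (-1.18), Snora21 (-0.71), Snora23 (-0.94), Snora35 (-1.07), Snora74a (-0.74) and Snora81 (-0.72). Snora7a lost this call in 8 of the 31 fits that left out a library and Snora15 in 1, and the 8 others in none. With no fold threshold, 21 rows and 16.1% of all genes had an adjusted p below 0.05. The number called at 1.5-fold was 2 without batch 3, 19 without batch 2 and 13 without batch 1.

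The technique effect differed between batches 3 and 1 in 13 rows at a limma adjusted p below 0.05, all more negative in batch 3, where 11.2% of all genes were more negative and 12.1% more positive. Snora23 differed by -1.51 ± 0.265 (SE, adjusted p 4e-05), Snora21 by -1.33 ± 0.246 and Snora81 by -1.09 ± 0.200. Snora69, in Rpl39, differed by -1.54 ± 0.537 on a mean of 12.2 in batch 1. Snora3 (-1.32), Snora33 (-1.28), Snora47 (-1.28), Snora31 (-1.01), Snora15 (-0.99), Snora41 (-0.99), Snora68 (-0.92), Snora74a (-0.75) and Snora17 (-0.73) made up the rest. Of these 13, Snora31, Snora41, Snora68, Snora69 and Snora74a lost the call in 9 or more of the 31 fits that left out a library. In the same contrast 14 of 28 hosts were more negative and 2 more positive, with a median of -0.45, and hosts of these 13 rows were more negative for 6 (Rpl27a, Cct6a, Ipo7, Tpt1, Eef1b2 and Eif4a2) and more positive for 1 (Zbed3). Of the other small RNAs, 6 of 9 Scarna rows and 12 of 56 Snord rows were more negative, and 1 Snord row was more positive. The number of Snora rows was 7 without FANS replicate 3 of batch 1 and 15 without FANS replicate 6 of batch 3. Between batches 2 and 1, Snora70 alone differed, by 1.78 ± 0.450 (SE, adjusted p 0.00987), where 4.43% of all genes were more positive and 1.87% more negative in batch 2. Leaving out a library gave 1 to 4 rows in this contrast. Between batches 3 and 2 none of 31 rows and none of 14332 genes passed with limma or edgeR, although 23 rows and 12.8% of all genes had an unadjusted p below 0.05 with limma, and 7 rows passed without FANS replicate 7 of batch 3.

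No host of a row that fell was itself called lower. In batch 3 none of the hosts of the 19 rows that fell was called, the log2 fold changes of the 28 hosts of tested rows ran from -0.28 to 0.27 with a median of -0.02, and each of the 31 rows was below its host, with a median difference of -0.89 on the log2 scale. Srcap, host of Snora30, was the exception on adjusted p and was higher in INTACT (0.27 ± 0.0704 SE, limma adjusted p 0.0426), short of 1.5-fold. In batch 1, 3 of the 6 hosts of the rows that fell rose, and none fell. On the log2 scale, Rps2 rose by 0.67 ± 0.109 (SE) while Snora64 fell by 0.72, Snhg9 rose by 0.66 ± 0.112 while Snora78 fell by 0.65, and Rpl32 rose by 0.60 ± 0.133 while Snora7a fell by 0.62. Rpl10, host of Snora70, had a mean of 182 ± 49.1 (SD) over the 4 FANS libraries and of 251 ± 13.8 (SD) over the 4 INTACT libraries (log2 fold change 0.49). Over the 29 hosts of batch 1 the median was 0.33, 6 were called higher and none lower, and 29 of the 32 rows were below their hosts. In batch 2 the median of the 29 hosts was 0.05 and 26 of the 32 rows were below their hosts. Across rows, Spearman's correlation of a row's log2 fold change with that of its host was -0.12 in batch 1 (n = 32), 0.08 in batch 2 (n = 32) and 0.25 in batch 3 (n = 31). Rows share libraries and some share a host, so these values are descriptions.

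**Figure D4:**
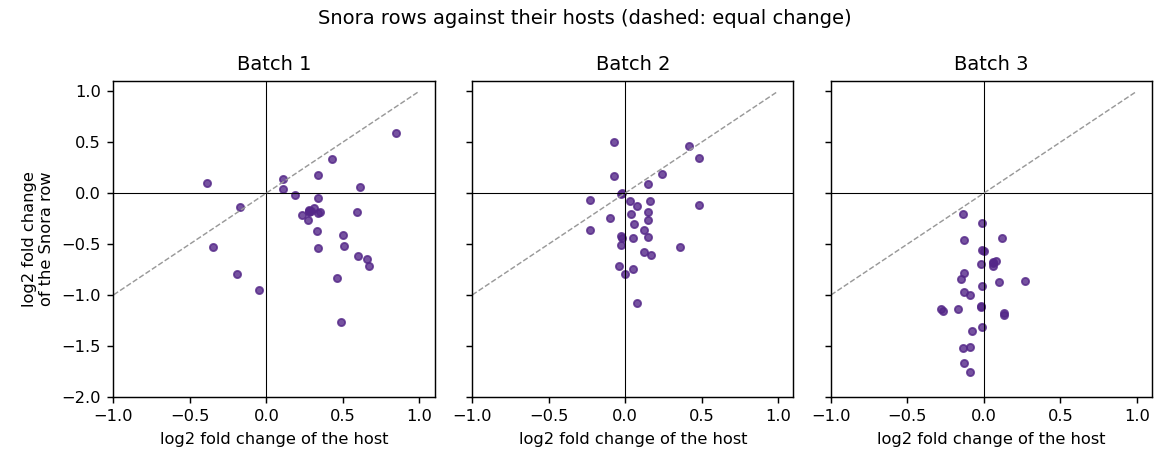
Log2 fold change of each tested Snora row (y axis) against that of its host gene (x axis) in each batch, INTACT minus FANS, with a dashed line of equal change. In batch 3 all 31 points lie below the line while the hosts stay between -0.28 and 0.27.

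Rows of the same host could be set side by side. Snhg12 holds Snora16a, Snora44 and Snora61, which changed by -0.54, -0.05 and -0.20 in batch 1, by -0.43, -0.26 and 0.09 in batch 2 and by -0.97, -0.78 and -0.46 in batch 3. Snora16a had the most negative value in each batch, and only Snora16a in batch 3 was called. Snhg12 itself changed by 0.34, 0.15 and -0.13. Snhg7 holds Snora17, which fell in batch 3 (-0.91), and Snora43, which was not called there (-0.56 ± 0.232 SE).

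By host class, the medians of batch 3 were -1.0 for the 11 rows in ribosomal protein genes, of which 7 fell, and -1.16 for the 3 in translation factor genes, of which 2 fell. They were -0.78 for the 7 in long non-coding RNAs, of which 4 fell, and -1.01 for the 10 in other protein genes, of which 6 fell. The median was negative in each class, and no class was tested against another.

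Size and abundance were set against the differences as a description, since the rows share libraries (n = 32, 32 and 31). Spearman's correlation of the log2 fold change with annotated length was -0.09, -0.11 and -0.08 in batches 1, 2 and 3, and with the mean normalized count it was -0.32, 0.03 and -0.15. With GC content it was 0.02, 0.40 and 0.30. In batch 3 the median was -0.87 for the 8 shortest rows, -0.96 for the 10 of middle length and -0.97 for the 13 longest, and 4, 5 and 10 of them fell. Of the shortest rows, Snora20 (61 nt) had the largest fall and Snora61 (62 nt) one of the smaller differences in batch 3. By mean count, the median was -0.98 for the 10 rows at 100 or more, -0.91 for the 9 rows from 30 to 100 and -0.85 for the 12 rows under 30, and 8, 7 and 4 of them fell. The 21 rows with 1 place in the genome had a median of -0.97 and 14 fell, and the 10 with more places had a median of -0.87 and 5 fell.

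**Figure D5:**
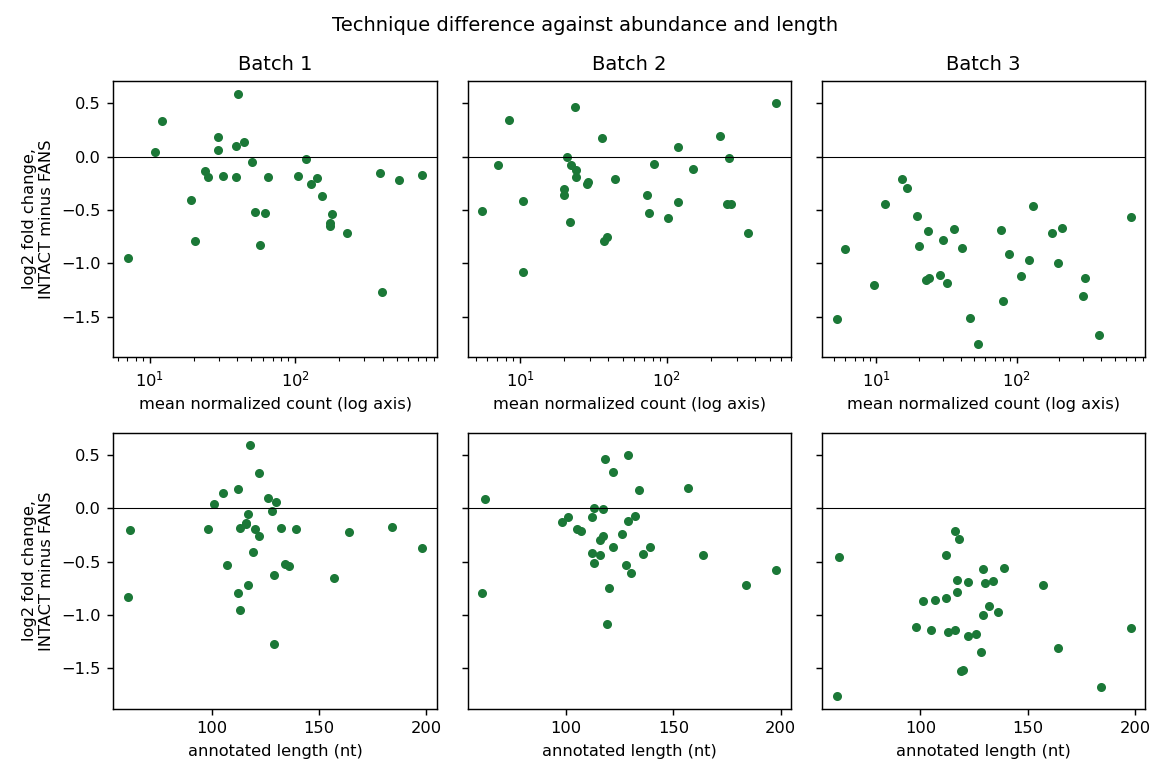
Log2 fold change of the tested Snora rows (y axis, INTACT minus FANS) against the mean normalized count (upper panels, log axis) and the annotated length in nt (lower panels) in each batch. Points of batch 3 lie below 0 at every level and length.

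Other small RNAs of the nucleus gave values to set beside these. Box C/D rows (Snord), which guide ribose methylation, had medians of -0.11, -0.06 and -0.55 in batches 1, 2 and 3, and 3 of 59, 0 of 59 and 12 of 56 fell (adjusted p below 0.05 and 1.5-fold). In batch 2, 6 of the 59 Snord rows had an unadjusted p below 0.05 with limma, a smaller share than the 15.2% of all genes, and edgeR also called 0 of them. Scarna rows, RNAs of Cajal bodies, had medians of 0.04, -0.18 and -0.81, and 1, 1 and 5 of 9 fell. In batch 1, 2 Scarna rows and 1 Snord row rose. In batch 3 the Snora median of -0.91 was thus the most negative of the 3 families, though the families were not tested against each other. The summed Snord level of batch 1 was 29400 to 38400 in FANS and 20400 to 24800 in INTACT, without overlap, as for the Snora sum. In batch 2 it was 18700 to 25100 in FANS and 15500 to 25200 in INTACT, with overlap, and that of batch 3 was 9690 to 26000 in FANS, lowest in FANS replicate 7, and 13700 to 15600 in INTACT.

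No gene for a protein of the H/ACA particle was called lower. Of the 4 core genes Dkc1, Nhp2, Nop10 and Gar1, Nhp2 rose in batch 1 (0.72 ± 0.207 SE, limma adjusted p 0.00775) and none was called in batches 2 and 3. Dkc1 changed by 0.26 ± 0.106, 0.12 ± 0.123 and -0.12 ± 0.130 (SE) in the 3 batches, and no change of it passed the test. Of 12 genes of assembly and localization and 9 of trimming and decay, none was called in any batch. The medians over the 3 batches were 0.19, -0.01 and -0.02 for assembly and -0.01, -0.04 and 0.02 for trimming, although 5 and 3 of these genes had an adjusted p below 0.05 in batch 1 and 1 trimming gene did in batch 2. In batch 1, 36.1% of all genes had such an adjusted p. In batch 3 none of these 25 genes had an adjusted p below 0.05. Terc, the telomerase RNA, which has an H/ACA domain, was at 0 to 7.36 in FANS and 9.52 to 12.2 in INTACT libraries of batch 1. It rose there (1.37 ± 0.535 SE, limma adjusted p 0.0478), on a mean of only 7.7. Its mean was under 5 in batches 2 and 3, where it was not tested. It was at 1.02 to 6.79 in FANS and 3.3 to 13.4 in INTACT libraries of batch 2. In batch 3 it was at 1.94 to 13.1 in FANS and 0 to 3.08 in INTACT libraries, so the INTACT range lay lower there.

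Markers of other cells were called in batches 1 and 2, and none was called in batch 3. Of 8 oligodendrocyte markers 6, 4 and 0 rose in batches 1, 2 and 3, and their summed level was 6070 to 7600 in FANS and 9810 to 10400 in INTACT libraries of batch 1, 6910 to 13400 and 13300 to 16000 in batch 2, and 1660 to 2270 and 2060 to 2580 in batch 3. Of 8 astrocyte markers 5, 1 and 0 rose. Their sums were 6280 to 7010 in FANS and 7800 to 7990 in INTACT libraries of batch 1. They were 5020 to 6640 and 6060 to 7440 in batch 2, and 5540 to 7240 and 5970 to 6590 in batch 3. Most of each astrocyte sum was Slc1a2 (mean of 6860 in batch 1), which was not called, so the sums say little about the markers that rose. Of 6 inhibitory neuron markers 3, 0 and 0 rose. Of the microglial markers, of which 3 were tested in batch 1, 1 fell (P2ry12), and of the vascular markers, of which 1 was tested, 1 rose (Vtn), with none called in the other batches. No marker had 0 reads throughout a table. The part of these cells in the Snora values of batches 1 and 2 was not tested, and in bulk nuclei fewer nuclei of a type and less RNA per nucleus cannot be told apart.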

How the data were processed

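Nuclear RNA of sfGFP+ neocortical nuclei was analysed in 31 libraries. The authors mapped single-end reads to mm10 (STAR), used unique molecular identifiers to drop duplicates, assigned uniquely mapped reads to genes (HTSeq) and divided them by DESeq size factors. The strand setting and the treatment of reads on overlapping genes are not given in the sources used here. The deposited values are a signal per gene, the normalized read count, scaled within each of 3 tables, which were taken as the batches. Batch 1 columns headed FACS were taken as FANS. A FANS and an INTACT library of batch 2 that the labels list were not analysed here, nor was the ATAC-seq. Whole reads were recovered from the steps between low values, and no value of a gene lay more than 0.107 reads from a whole read. In INTACT replicate 3 of batch 3, 1 read is worth 1.003, so that this check says little there. Of 70 pairs of libraries of a group, none agreed within counting noise.

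Techniques were compared within each batch with limma 3.58.1 (lmFit, eBayes with a trend) in R 4.3.3 on log2(normalized count + 1), for genes with a mean of at least 5, and p-values were adjusted by Benjamini-Hochberg over all genes tested. A call needed an adjusted p below 0.05 and 1.5-fold. Fold changes of low rows are understated on this scale. The fits were also run on simulated counts with the same dispersion for every gene and no shifts shared by rows of a library. That setting lacks the wider spread of the Snora rows, so it says nothing about their calls. Whole tables were fitted, a fit over the 3 batches had batch as a term, and its interaction tested differences between batches. edgeR 4.0.16 and DESeq2 1.42.0 were alternatives on recovered reads. Coordinates and sequences came from RefSeq on the mm10 assembly, and copies from blastn. Named were rows called in a batch or differing between batches, the 3 highest rows per 100 nt and, with a mean of at least 50, the 2 largest rises and falls of each batch. The members and lists were chosen with earlier results of these data known. The host of 1 named row is not reported here.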

Additional observations from a re-analysis of the deposited data

Results flagged for a closer look

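The level of 8 sets of libraries held 1 library far from the others, by the gap to its neighbour against the range of the group, out of 162 sets examined. Chance flags about 1 in 20 sets. The summed Snora level of FANS replicate 1 in batch 3 was 5920, against 3660 to 4100 in the other FANS libraries. Snora20 was 9.03 in INTACT replicate 3 of batch 3 (22.3 to 24.7 in the others) and 90.4 in FANS replicate 5 of batch 2 (30.0 to 44.9 in the others). Snora70 was 382 in INTACT replicate 3 of batch 3 (490 to 530 in the others). Snora3 was 39.1 in INTACT replicate 2 of batch 3 (14.0 to 20.3 in the others). Snora41 was 26.8 in INTACT replicate 3 of batch 2 (17.6 to 18.8 in the others), and Snora47 was 38.5 in INTACT replicate 4 of batch 2 (19.7 to 21.6 in the others). Snora61 was 183 in FANS replicate 3 of batch 1 (139 to 143 in the others).

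The technique effect differed between batches by the interaction test of limma for 14 results. Snora70 was more positive in batch 2 than in batch 1 by 1.78 (adjusted p 0.00987). Relative to batch 1, the log2 fold change in batch 3 was more negative, by values of -1.54 for Snora69, -1.51 for Snora23, -1.33 for Snora21, -1.32 for Snora3, -1.28 for Snora33, -1.28 for Snora47, -1.09 for Snora81, -1.01 for Snora31, -0.99 for Snora15, -0.99 for Snora41, -0.92 for Snora68, -0.75 for Snora74a and -0.73 for Snora17. Adjusted p-values of these 13 ran from 4e-05 to 0.0486. No explanation of these values was tested.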

How the results depend on the processing

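Counts of Snora rows called were set against alternatives to the scaling, pseudocount, filter, test and libraries. With no fold threshold they were 11 in batch 1, 3 in batch 2 and 21 over the 3 batches, where 36.1%, 1.14% and 16.1% of all genes passed. In batch 2 the count was 0 with all genes that had a read, 0 with the replicate number as a block, and 0 with DESeq2, which gave an adjusted p for 10 of 32 rows. DESeq2 called 11 in batch 3, out of 14 rows with an adjusted p. Over the 3 batches the count was 19 without batch 2 and 2 without batch 3. edgeR called 2 rows as differing between batches 2 and 1, against 1. Under the other alternatives these counts stayed within 1.5 times the reported ones, apart from leaving out a library.

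Leaving out 1 library in turn gave 4 to 9 calls in batch 1, 0 to 3 in batch 2, 15 to 21 in batch 3 and 8 to 12 over the 3 batches. It gave 1 to 4 rows that differed between batches 2 and 1, 7 to 15 between batches 3 and 1 and 0 to 7 between batches 3 and 2. Leaving out libraries over the 3 batches and for the differences between batches was chosen after seeing the data. Medians ran from -0.31 to -0.14 in batch 1, from -0.35 to -0.16 in batch 2 and from -1.0 to -0.88 in batch 3, and no alternative moved a median by more than the spread between libraries.

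Several named rows changed sign or came to 0.00, and none did so in batch 3 on leaving out a library. Snora21 in batch 1 became 0.00 with TMM scaling and ran from -0.21 to 0.15 without a library. Without a library, Snora44 ran from -0.13 to 0.01, Snora33 from -0.01 to 0.30 and Snora47 from -0.14 to 0.27 in batch 1. In batch 2, Snora64 became 0.06 with the replicate block and ran from -0.11 to 0.13 without a library, Snora70, at 0.50 without it, 0.00 with the block and Snora7a 0.05 without INTACT replicate 4. Also in batch 2, and without a library, Snora17 ran from -0.22 to 0.09, Snora31 from -0.19 to 0.18, Snora41 from -0.13 to 0.12, Snora61 from -0.06 to 0.20 and Snora68 from -0.39 to 0.09. The cause was not tested.

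Replicate numbers are shared by the techniques. Correlations of libraries with the same number ran from -0.0704 to 0.112. Both libraries of a number correlated best with each other in 2 cases of batch 3 and in none of the other batches. Low correlations between libraries of the same source cannot exclude a pairing, so whether the numbers pair the libraries is not known. With the replicate number as a block, 7 rows were called in batch 1, 0 in batch 2 and 24 in batch 3. Depth limits the rows with few reads, such as Snora34, Snora35 and Snora36b.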
